A study of Mus musculus with 10 samples.

Results

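Liver RNA of aged mice that had eaten a yogurt diet was set against liver RNA of mice on the same diet without yogurt, on 2 of the 10 arrays of a study of 5 tissues. All mice were males of ICR, an outbred stock, kept 1 to a cage under specific-pathogen-free conditions. Both groups ate AIN-93, a purified rodent diet, and in the yogurt group it contained LB81 yogurt at 1 to 2%, from 8 months of age until tissues were taken at 28 months. RNA was extracted from each mouse, and equal amounts from 10 yogurt mice and from 9 control mice were mixed into 1 pool per diet. Each liver pool (100 ng) was amplified with the 3'IVT Express kit and read on 1 Affymetrix whole-genome mouse array. The arrays from jejunum, ileum, distal colon and spleen, also 1 pool per diet, serve here for comparison. A pool carries the average of its mice and no spread between them, so no difference below has a replicate check and none has a p-value. What is reported is the log2 ratio of the yogurt pool over the control pool for each gene, where a ratio of 1 is a 2-fold higher value with yogurt and a ratio of -1 a 2-fold lower one.

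The liver makes most plasma proteins, turns sugar into fat and cholesterol into bile acids, clears steroids and foreign compounds, and answers inflammatory signals with acute phase proteins. Many of its metabolic genes follow the daily clock, and a further group differs between males and females through the rhythm of growth hormone release. Besides hepatocytes, the tissue holds Kupffer cells (resident macrophages), sinusoidal endothelium, stellate cells, bile ducts, and leukocytes in the blood that fills it.

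Of 18194 genes with a probe set of their own, 12161 were measured in liver, that is, had a value above the array's median on at least 1 of the 2 arrays. This median served as a floor: it was 5.45 on the yogurt array and 5.42 on the control array (log2 expression value), and lower values were raised to it. In 248 measured genes the control pool was at the floor and in 208 the yogurt pool was, so their ratios are bounds with a sign that the floor fixes. The 2 arrays had a Spearman correlation of 0.994 over probe sets. The ratios had a median of -0.03 and an SD over genes of 0.17. Of the measured genes, 42.2% had a ratio above 0 and 57.8% a ratio below 0, and these shares are the background for every count of list members below. At least 2-fold higher with yogurt were 18 genes (0.148%), and at least 2-fold lower were 6 (0.0493%). At 1.5-fold the counts were 61 higher (0.502%) and 41 lower (0.337%). With a 65th percentile floor the 2-fold counts were 11 and 3 and the 1.5-fold count of higher genes was 32, and a pseudocount instead gave counts of higher genes of 11 at 2-fold and 38 at 1.5-fold. Other choices of processing gave up to 22 higher and 9 lower genes at 2-fold, and up to 88 and 57 at 1.5-fold. RNA integrity was read from probe sets at both ends of a transcript: the 3' end exceeded the 5' end by 0.86 (log2) for Gapdh and 1.82 for actin with yogurt, and by 0.98 and 2.01 without. The part of this difference in the ratios below was not tested.

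**Figure D1:**
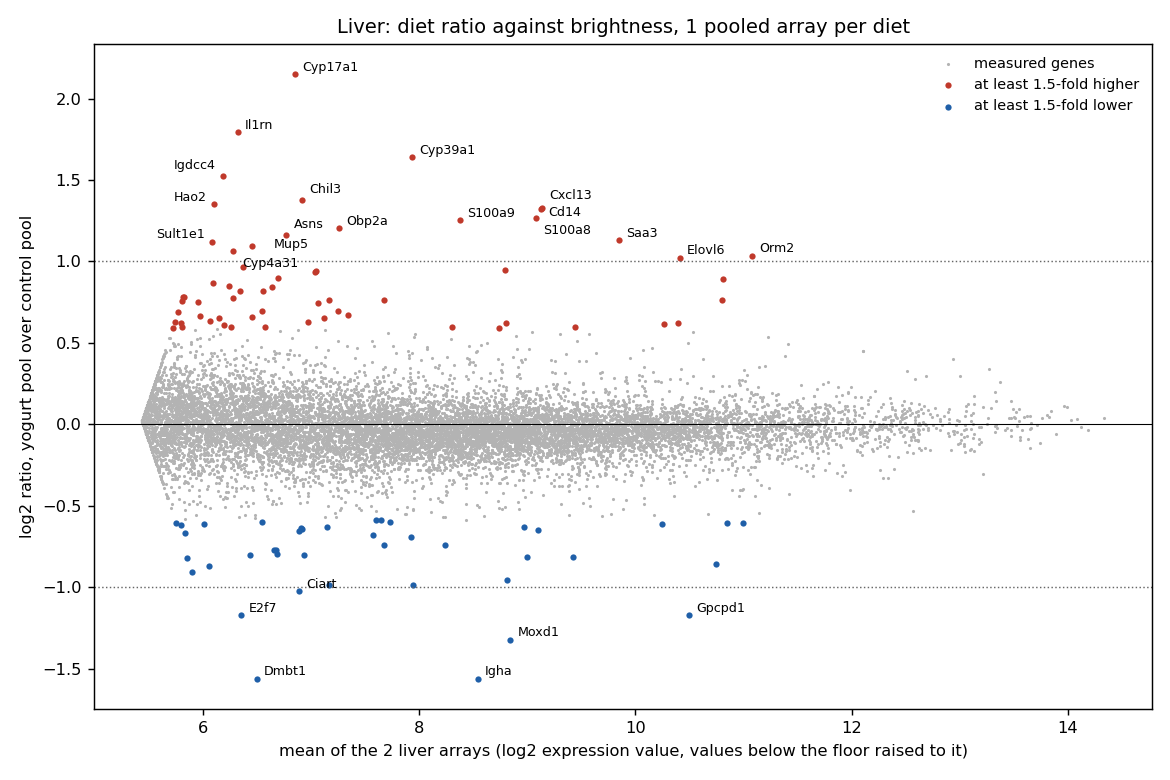
Log2 ratio of the yogurt over the control pool (vertical axis) against the mean log2 expression value of the 2 liver arrays (horizontal axis) for 12161 measured genes, with dotted lines at 2-fold. Genes at least 1.5-fold higher (61, red) and lower (41, blue) are coloured, and the 24 genes past 2-fold are named; the slanted left edge is set by the floor.

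The tissue carried its label: the hepatocyte genes Alb, serum albumin, and Ttr, which carries thyroid hormone, were among the brightest on both arrays, with 14.36 (yogurt) and 14.32 (control) for Alb and 14.05 and 14.02 for Ttr. Of 18 measured hepatocyte markers, 8 had ratios above 0 and 10 below, with a median of -0.03. The hepatocyte zones also gave medians near that of all genes, -0.01 over 19 genes of the zone around the central vein and -0.02 over 16 genes of the zone around the portal vein. The fat cell hormone gene Adipoq was below the floor on both arrays (3.63 and 3.68), as was the gut epithelial gene Vil1 (4.59 and 4.57). Of 22 exocrine pancreas genes on the array, 14 were below the floor on both arrays, and 7 of the 8 measured had ratios above 0 (median 0.16). The floor fixed the sign of 2 of these, and of the 6 above it in both pools 5 were above 0 (median 0.15). Of the gut epithelial list 5 of 15 were measured, with the antimicrobial lectin Reg3b at 6.85 and 5.89 (0.97, and 0.35 with a 65th percentile floor). Their part in the results below was not tested. Since this is whole tissue, fewer cells of a type and less RNA per cell cannot be told apart anywhere below.

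Enzymes that hydroxylate or conjugate steroids and sterols were among the 18 genes at least 2-fold higher with yogurt, and 1 of them had the highest ratio in the liver. Cyp17a1, which makes androgen precursors from progestins, had 7.93 with yogurt and 5.78 without, a ratio of 2.15 (4.44-fold). Cyp39a1, which hydroxylates an oxysterol on a side route to bile acids, had 8.75 and 7.11, a ratio of 1.64 (3.11-fold). The SD over all measured genes was 0.17 on the same scale. Sult1e1, the oestrogen sulfotransferase, had 6.65 and 5.53 (1.12), and Hao2, a peroxisomal hydroxyacid oxidase, had 6.78 against a control value at the floor, at least 2.55-fold higher. Elsewhere in the P450 family the balance was the other way: 39 of 56 measured Cyp genes had ratios below 0 and the family's median was -0.10. The floor matters for the dimmer of these genes, and at the 65th percentile the ratios were 1.42 for Cyp17a1, 0.14 for Sult1e1 and 0.27 for Hao2.

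Enzymes on the main routes of bile acid synthesis had lower values with yogurt. Cyp7a1, the rate-limiting enzyme of the classical route, had 9.01 with yogurt and 9.83 without, a ratio of -0.82, and its 2 probe sets gave -0.93 and -0.82. Cyp7b1, the hydroxylase of the alternative route, had 12.30 and 12.83 (-0.53), and Cyp8b1, which sets the share of cholic acid, had 9.84 and 10.33 (-0.49). Of 17 measured genes of bile acid synthesis 14 were below 0 and 3 above, with a median of -0.10, so Cyp39a1 stood alone in its list past 1.5-fold in the upward direction. Among 16 genes that move bile acids or control their synthesis, 12 were below 0 (median -0.05). Those above included Nr0b2, a repressor of Cyp7a1, with 9.40 and 9.15 (0.25), the canalicular export pump Abcb11 with 11.22 and 11.04 (0.19), and the basolateral exporter subunit Slc51b with 6.23 and 5.84 (0.39). The bile acid receptor gene Nr1h4 had 10.02 and 10.28 (-0.26). Slc10a2, the sodium-dependent bile acid importer of ileum and bile duct, had a ratio of 0.48 in liver.

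Cholesterol synthesis was also lower as a list, with 14 of 17 measured genes below 0 and a median of -0.26 against -0.03 for all genes. Msmo1, a sterol methyl oxidase late in the pathway, had 10.69 with yogurt and 11.30 without (-0.60). Squalene epoxidase, Sqle, had 9.89 and 10.45 (-0.56), the ketosteroid reductase Hsd17b7 had 10.14 and 10.58 (-0.44), and the isomerase Idi1 had 10.79 and 11.19 (-0.40). Early and late steps of the pathway are both among these genes, and the HMG-CoA synthase gene Hmgcs1 had 11.78 and 12.18 (-0.40), with 4 probe sets between -0.40 and -0.23. The list's highest ratio, that of the desaturase Sc5d, was 0.16. Genes of sterol uptake, efflux and sterol sensing had a median of -0.08 over 16 genes, with the lysosomal cholesterol transporter Npc1 at 9.40 and 9.65 (-0.26).

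The start of Hmgcs1 is shown because the sterol response element, the site of the SREBP factors that control this pathway, can be read in it. The 250 bases before its start lie at chr13:119690101-119690350, plus strand (RefSeq, GRCm38.p6), and the capitals mark the motif TCACNCCAC, searched on both strands.
Hmgcs1: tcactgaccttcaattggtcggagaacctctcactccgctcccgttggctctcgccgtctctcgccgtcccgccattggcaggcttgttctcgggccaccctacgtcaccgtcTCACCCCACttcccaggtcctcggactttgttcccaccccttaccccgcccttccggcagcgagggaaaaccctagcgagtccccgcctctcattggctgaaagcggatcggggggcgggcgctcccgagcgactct
This motif was found in 1.05% of 32851 mouse promoters of the same length and in 1 of the 14 genes of this list with a promoter sequence. A gene counted if any of its promoters matched, so the shares of genes and of promoters differ in unit. The sequence is that of the reference strain, not of ICR mice, and a match is a run of letters, not a measured binding site.

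Fatty acid synthesis had the opposite sign to cholesterol synthesis. Elovl6, which elongates palmitate, had 10.92 with yogurt and 9.90 without, a ratio of 1.02 (2.03-fold), and the mean over all its probe sets was 0.61. Pnpla3, a lipid droplet lipase-like protein, had 7.51 and 6.57 (0.94). Fatty acid synthase, Fasn, had 11.19 and 10.42 (0.77), and the acetyl-CoA carboxylase gene Acaca had 9.85 and 9.29 (0.55). The citrate-cleaving enzyme Acly, one step earlier, had 11.50 and 10.96 (0.54), and malic enzyme, Me1, which supplies NADPH, had 9.85 and 9.41 (0.44). Of 24 measured lipogenic genes 17 were above 0, with a median of 0.12. The genes of the factors that drive this programme did not share the sign, with 10.64 and 10.66 for Srebf1 (-0.02) and 10.07 and 10.16 for Mlxipl (-0.08), and the desaturase Scd1 was at 14.02 and 13.91 (0.11). Enzymes that esterify the product were also near the background, Dgat1 at -0.11 and Dgat2 at -0.12.

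Fatty acid oxidation genes, many of them targets of the nuclear receptor PPAR alpha, were mostly lower, 29 of 34 below 0 with a median of -0.13. The acyl-CoA thioesterase gene Acot1 had 8.59 with yogurt and 9.40 without (-0.82), and its neighbour in the family, Acot3, had 6.84 and 7.41 (-0.57). The carnitine importer Slc22a5 had 8.67 and 9.18 (-0.52), while Cpt1a, the gate of mitochondrial oxidation, had 11.17 and 11.30 (-0.13). Of the 5 genes of this list above 0, 3 were well above it. The omega-hydroxylase Cyp4a14 had 9.27 and 8.32 (0.95), the hormone gene Fgf21 had 7.06 and 6.22 (0.84), and the pantetheinase Vnn1 had 9.33 and 8.76 (0.57). Cyp4a31, a relative of Cyp4a14, had 6.81 and 5.75 (1.06, and 0.30 with a 65th percentile floor). Short stretches are nearly identical between Cyp4a genes and between Acot genes, so probes may not separate the members of either family.

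Lipid droplet and lipid hydrolysis genes were below 0 in 13 of 16 cases (median -0.16). The droplet fusion gene Cidec was at the floor in the yogurt pool and at 5.84 in the control pool, a ratio of -0.39 that is a bound. Fitm2, which helps droplets form, had 9.36 and 9.73 (-0.38), and the droplet coat gene Plin2 had 12.21 and 12.30 (-0.08). Lipoproteins were balanced, 10 of 22 above 0 with a median of 0.00. The outliers of that list were the lipoprotein receptor Vldlr, with 7.45 and 6.80 (0.65, and 0.34 as the mean over all its probe sets, those below the floor included), and Angptl8, an insulin-responsive lipase inhibitor, with 8.21 and 7.82 (0.40). Gpcpd1, a glycerophosphocholine phosphodiesterase, was among the lowest genes of the liver, with 9.91 and 11.09 (-1.17), and its 4 probe sets lay between -1.17 and -0.62.

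**Figure D2:**
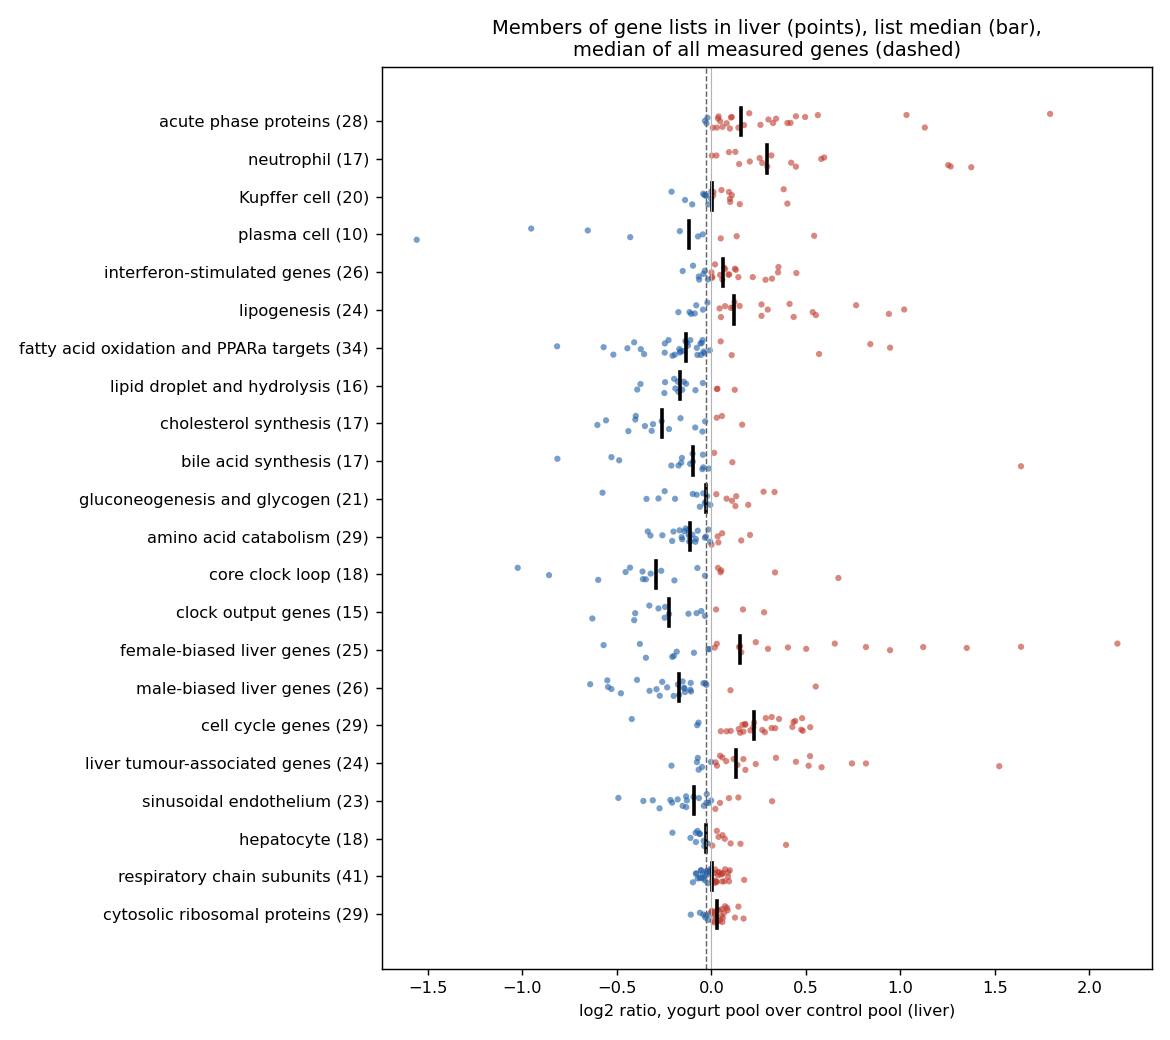
Log2 ratio of the yogurt over the control pool in liver (horizontal axis) for the measured members of 22 gene lists (number measured in brackets); red points are above 0 and blue points below, black bars are list medians and the dashed line is the median of all measured genes. The neutrophil, cell cycle, acute phase and lipogenic medians lie to the right (0.30, 0.23, 0.16 and 0.12), and the clock, cholesterol synthesis and male-biased medians to the left (-0.29, -0.26 and -0.17).

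Sugar metabolism showed single genes rather than a list that leaned one way. Gluconeogenesis and glycogen genes had 8 of 21 above 0 (median -0.03), and glycolysis and fructose genes had 12 of 22 above 0 (median 0.01). Glucose-6-phosphatase, G6pc, the last step of glucose output, had 11.17 with yogurt and 10.84 without (0.33), whereas Pck1, an earlier step, had 12.25 and 12.45 (-0.19). Liver pyruvate kinase, Pklr, had 9.51 and 9.20 (0.31), and ketohexokinase, Khk, which opens fructose use, had 11.86 and 11.61 (0.25). The lowest were the glucose transporter Slc2a1, with 8.30 and 8.81 (-0.51), and Ppp1r3g, a glycogen-targeting phosphatase subunit, with 6.19 and 6.77 (-0.58, and -0.27 with a 65th percentile floor). The sodium-glucose importer Slc5a1 had 6.66 and 5.89 (0.77, and 0.15 with that floor). Of the growth hormone and IGF genes 8 of 23 were above 0 (median -0.04), with Igf1, the main circulating growth factor of the liver, at 12.28 and 12.39 (-0.10) and Socs2, a feedback inhibitor of the growth hormone receptor, at 10.30 and 9.84 (0.46, and 0.10 as the mean over all its probe sets).

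Amino acid breakdown was slightly lower, with 23 of 29 measured genes below 0 and a median of -0.11, and the urea cycle list had 10 of 12 below 0 with a median of -0.04. The proline oxidase Prodh had 9.90 and 10.24 (-0.34), the lowest ratio of the breakdown list. Outside both lists, the lysine and kynurenine aminotransferase Aadat had 9.94 and 10.55 (-0.61). In the other direction stood Asns, asparagine synthetase, a target of the amino acid response factor ATF4, with 7.35 with yogurt and 6.19 without, a ratio of 1.16, and 1.32 in its other probe set. Fgf21 (0.84, above) and Nupr1, a stress-induced nuclear protein with 5.97 and 5.48 (0.49), belong to the same response. The response as a whole was not shifted: of 33 genes of the amino acid and unfolded protein response 16 were above 0 and 17 below, with a median of -0.01. The ATF4 gene itself, Atf4, had 9.99 and 9.89 (0.10), its target Trib3 had 7.36 and 7.39 (-0.03), and the chaperone Hspa5 had 13.08 and 13.16 (-0.08).

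The promoters of Asns, Fgf21 and Nupr1 are shown because these leading members of the response each hold an amino acid response element, the site read by ATF4. Capitals mark the motif TGATGNAA, searched on both strands, in the 250 bases before each start (RefSeq, GRCm38.p6, minus strand). The windows lie at chr6:7693210-7693459 for Asns, chr7:45615491-45615740 for Fgf21 and chr7:126625471-126625720 for Nupr1.
Asns: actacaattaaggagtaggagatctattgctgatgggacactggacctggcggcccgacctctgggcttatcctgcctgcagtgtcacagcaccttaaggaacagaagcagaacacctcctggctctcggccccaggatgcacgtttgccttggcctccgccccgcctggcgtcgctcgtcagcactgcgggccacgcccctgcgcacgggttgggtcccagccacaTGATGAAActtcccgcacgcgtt
Fgf21: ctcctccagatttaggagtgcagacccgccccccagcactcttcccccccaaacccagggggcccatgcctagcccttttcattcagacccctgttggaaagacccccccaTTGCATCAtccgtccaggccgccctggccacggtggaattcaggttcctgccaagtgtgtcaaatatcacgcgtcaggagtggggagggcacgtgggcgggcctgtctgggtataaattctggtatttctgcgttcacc
Nupr1: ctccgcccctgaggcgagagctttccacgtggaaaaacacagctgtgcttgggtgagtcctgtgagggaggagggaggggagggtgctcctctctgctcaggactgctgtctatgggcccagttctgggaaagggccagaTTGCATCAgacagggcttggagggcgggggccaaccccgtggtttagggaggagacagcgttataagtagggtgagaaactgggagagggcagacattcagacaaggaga
In Asns the match reads on the gene's own strand, and in the other two it reads on the opposite strand, so its reverse complement is printed. The motif was found in 3.45% of all promoters of this length. Of the 30 genes of the list with a promoter sequence, 6 held it in at least 1 promoter, namely Atf3, Asns, Chac1, Fgf21, Nupr1 and Herpud1. A share of genes is not on the same unit as a share of promoters. Presence of the motif and the ratio did not go together one for one, since Chac1 was at -0.10 and Herpud1 at -0.25.

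The daily clock was the list with the lowest median, -0.29 over 18 measured genes, 13 of them below 0. In its feedback loop the activators Clock and Arntl switch on Per, Cry and Nr1d genes, whose products then repress them, so activator and target transcripts peak at opposite times of day. Dbp, an output factor driven directly by the activators, had 10.32 with yogurt and 11.18 without (-0.86), and its 2 probe sets gave -0.86 and -0.76. The repressor gene Ciart had 6.37 and 7.40 (-1.03). Per3 had 7.43 and 8.03 (-0.60, and -0.22 as the mean over all its probe sets), Cry2 had 8.03 and 8.46 (-0.43), Per1 had 7.93 and 8.29 (-0.36), and Per2 had 7.39 and 7.71 (-0.32). Arntl ran the other way, with 7.68 and 7.01 (0.67), as did Cry1, the repressor with the latest phase, with 7.84 and 7.50 (0.34). Clock itself was at 8.54 and 8.51 (0.03), and Nr1d1 was at 6.88 and 6.95 (-0.07).

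**Figure D3:**
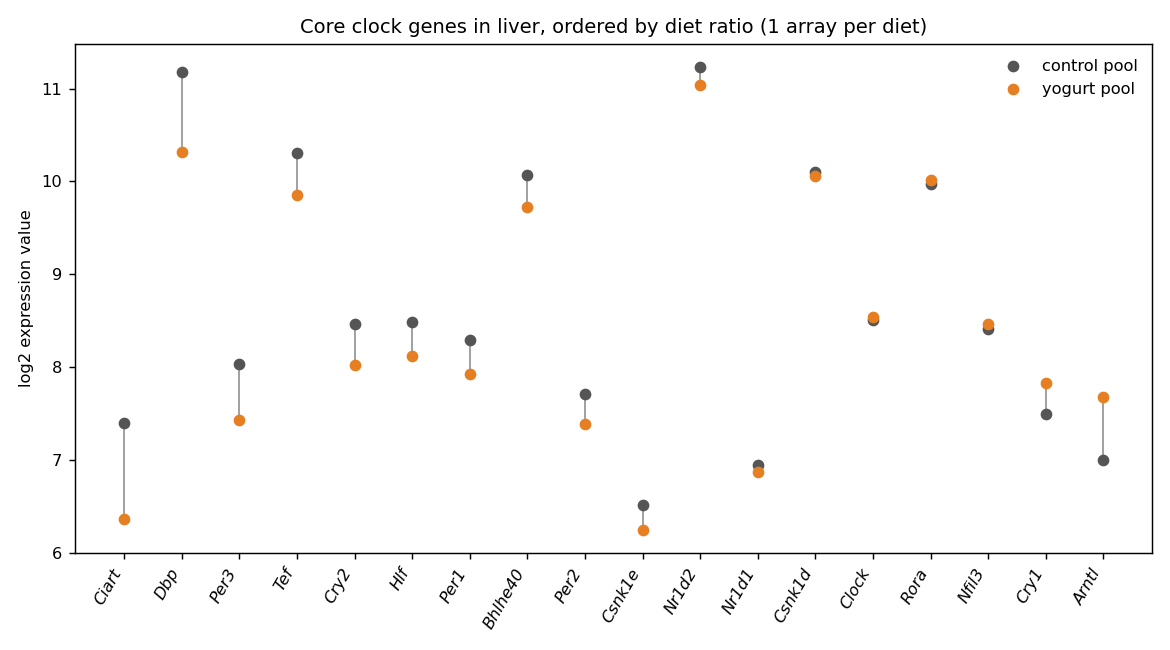
Log2 expression value (vertical axis) of the 18 measured core clock genes in the yogurt pool (orange) and control pool (gray) of liver, 1 array each, ordered from the lowest to the highest diet ratio. The yogurt point lies below the control point for 13 genes, from Ciart (-1.03) onward, and above it for 5, most for Arntl (0.67).

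Genes downstream of the clock had the same balance, with 12 of 15 below 0 and a median of -0.22. The deubiquitinase Usp2 had 8.66 and 9.29 (-0.63), the uridine phosphorylase Upp2 had 10.76 and 11.17 (-0.40), and the cell cycle kinase Wee1 had 8.24 and 8.57 (-0.33). Cirbp, a cold-inducible RNA-binding protein whose transcript cycles with body temperature, had 7.58 and 8.27 (-0.69), while 15 measured cold- and heat-responsive genes together had a median of 0.05. Across the other tissues the clock medians were -0.12 in jejunum, -0.08 in ileum, -0.14 in distal colon and -0.19 in spleen. Immediate early genes, which respond within minutes to handling and feeding, were below 0 in 18 of 24 cases (median -0.13), with Fos at 7.56 and 7.89 (-0.33), Jun at 8.62 and 8.95 (-0.33) and Egr1 at 9.61 and 9.41 (0.20). The labels used here do not state the hour of tissue collection for either diet, and its part in these values, and in those of Cyp7a1, whose transcript also follows the day, was not tested.

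Ciart and Per3 are shown as the list members with the lowest ratios whose promoters held a clock motif. Capitals mark the E-box CACGTG, read by Clock and Arntl, in Ciart, and the D-box TTATGTAA, read by Dbp and its relatives, in Per3, both searched on both strands in the 250 bases before the start (RefSeq, GRCm38.p6, minus strand). The windows lie at chr3:95882229-95882478 and chr4:151044666-151044915.
Ciart: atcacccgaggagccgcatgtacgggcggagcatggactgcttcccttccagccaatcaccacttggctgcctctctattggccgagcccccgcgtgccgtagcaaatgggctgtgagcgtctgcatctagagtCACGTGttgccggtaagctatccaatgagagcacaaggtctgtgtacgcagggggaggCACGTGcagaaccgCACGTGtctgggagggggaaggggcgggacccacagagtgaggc
Per3: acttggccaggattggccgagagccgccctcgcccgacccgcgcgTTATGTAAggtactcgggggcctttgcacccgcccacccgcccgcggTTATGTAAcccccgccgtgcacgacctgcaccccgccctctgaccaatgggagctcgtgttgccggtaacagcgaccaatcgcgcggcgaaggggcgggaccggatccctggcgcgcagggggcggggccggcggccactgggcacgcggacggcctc
Ciart held 3 E-boxes and Per3 held 2 D-boxes. An E-box was found in 6.02% of all promoters of this length. Of the 15 clock genes with a promoter sequence, 4 held it in at least 1 promoter, namely Per1, Cry1, Ciart and Tef. A D-box was found in 0.819% of all promoters and in 1 of the 15 genes. Shares of genes and of promoters differ in unit. The carriers of an E-box did not share a sign, since Cry1 was above 0.

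Genes that differ between the sexes in mouse liver separated by the sex they mark, although all mice were male. The lists were chosen with earlier results of these data known, so this separation is a description and not a test. Female-biased genes were above 0 in 16 of 25 cases, with a median of 0.15, or in 14 of the 22 above the floor in both pools (median 0.15). None was at least 1.5-fold lower, and 7 were at least 1.5-fold higher. They were Cyp17a1, Cyp39a1, Hao2 and Sult1e1 with the values above, Cyp4a14 (0.95), the stem cell and duct membrane protein Prom1 with 6.75 and 5.93 (0.82, and 0.24 with a 65th percentile floor), and Vldlr (0.65). Cyp2b9, a P450 that is nearly specific to females, had 8.88 and 8.38 (0.50). Against this stood Acot3 at -0.57, also a female-biased gene.

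Male-biased genes were below 0 in 24 of 26 cases, with a median of -0.17. Ugt2b38, a glucuronosyltransferase, had 6.59 with yogurt and 7.24 without (-0.64). Elovl3, which elongates very long fatty acids, had 10.39 and 10.95 (-0.55), and Hsd3b5, a steroid reductase, had 10.87 and 11.41 (-0.55). Cyp7b1 (-0.53) belongs to this list as well as to bile acid synthesis. The exceptions were Gna14, a G protein subunit, with 8.24 and 7.68 (0.55), and Egfr at 0.10. The major urinary protein gene Mup3 was at 12.21 and 12.24 (-0.03, and -0.46 as the mean over all its probe sets). The regulators of the pattern were close to the background, with Hnf4a at -0.04, Stat5b at -0.02 and Bcl6 at -0.14, apart from Onecut1, a female-biased transcription factor gene, with 9.14 and 8.75 (0.40). After centring on the median of measured genes, 18 of the 25 female-biased and 2 of the 26 male-biased genes were above 0.

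**Figure D4:**
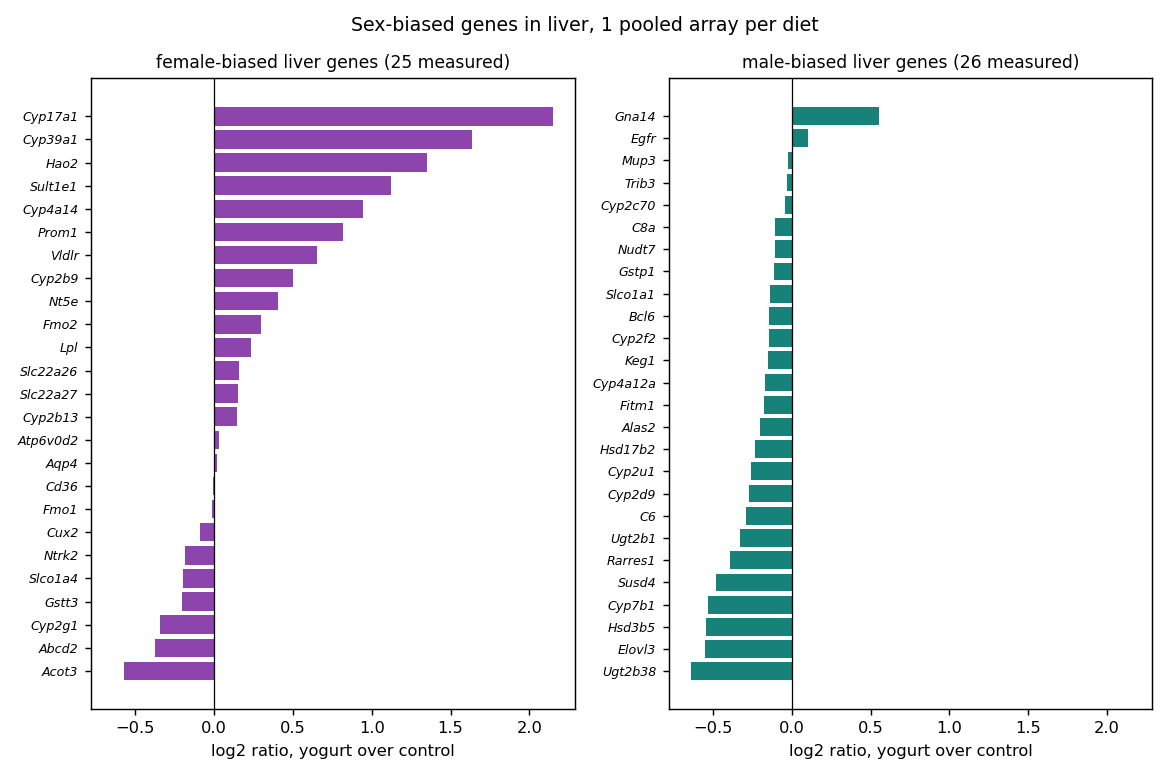
Log2 ratio of the yogurt over the control pool (horizontal axis, bars from 0) in liver for the 25 measured female-biased (left) and 26 measured male-biased (right) genes, 1 array per diet. Female-biased bars reach 2.15 for Cyp17a1 with 9 of 25 below 0, and 24 of 26 male-biased bars are below 0.

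Detoxifying enzymes differed by family. All 10 measured Ugt glucuronosyltransferase genes were below 0 (median -0.13), and 7 of 10 carboxylesterase genes were (median -0.18), with Ces1g, a triglyceride and ester hydrolase, at 9.62 and 10.14 (-0.52). Of 18 glutathione S-transferase genes 12 were above 0 (median 0.09), led by Gstm3, with 11.25 with yogurt and 10.36 without (0.89) and 1.21 in its other probe set. Members of the Gstm group are close copies of each other, so the probe sets may share signal. Targets of the oxidative stress factor Nrf2 together with glutathione enzymes had 18 of 33 above 0 (median 0.04). Among the classical targets, the glutathione synthesis gene Gclc was at 0.08, Nqo1 had 6.64 and 6.92 (-0.28) and Hmox1 had 7.93 and 8.27 (-0.34). Targets of the drug sensors CAR and PXR had 9 of 22 above 0 (median -0.06), with Cyp2c54 at 10.55 and 11.16 (-0.61), Cyp2b10 at 6.07 and 6.01 (0.05) and Cyp3a11 at 13.55 and 13.40 (0.15). The gene of CAR itself, Nr1i3, had 9.14 and 9.51 (-0.38). All 6 measured genes of the aryl hydrocarbon receptor group were below 0 (median -0.11, but 0.017 as the mean over all probe sets), with Cyp1a2 at 10.66 and 10.81 (-0.15).

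Secreted acute phase proteins were higher with yogurt in 25 of 28 cases, with a median of 0.16, or in 23 of the 26 above the floor in both pools (median 0.13). Saa3, a serum amyloid made by macrophages as well as hepatocytes, had 10.41 with yogurt and 9.28 without, a ratio of 1.13. The orosomucoid Orm2 had 11.60 and 10.57 (1.03), and Orm3 had 7.99 and 7.42 (0.56). Il1rn, the natural antagonist of the interleukin-1 receptor, had 7.22 against a control value at the floor, at least 3.47-fold higher, with 0.80 as the lowest of its 3 probe sets. The bulk hepatocyte proteins of this list were nearer to the background, Hp at 14.04 and 13.94 (0.11) and Saa1 at 13.50 and 13.24 (0.26). The 3 members below 0 were Fga, Crp and Ahsg, none lower than -0.03. Lbp, which hands endotoxin to Cd14, had 11.19 and 10.89 (0.30), but its 2 probe sets disagreed, at -0.54 and 0.30. Metallothionein genes Mt1 and Mt2 were at 0.40 and 0.33, and for Mt1 the other probe set gave -0.23.

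Genes of endotoxin sensing, chemokines, cytokine feedback, interferon response and antigen presentation were less uniform. Cd14, the co-receptor for endotoxin, had 9.79 and 8.47 (1.32), while Tlr4, the receptor it serves, was close to the floor at 5.45 and 5.55 (-0.10), and Tlr2 had 7.35 and 7.09 (0.26). The chemokine Cxcl13, which draws B cells, had 9.80 and 8.47 (1.33), with 1.23 in its other probe set. The neutrophil chemokine Cxcl1 had 9.71 and 9.21 (0.51), and Cxcl9, induced by interferon gamma, had 8.76 and 8.31 (0.45). Il1b was at 6.73 in both pools, and the interleukin-6 gene was below the floor on both arrays. Feedback genes of the interleukin-6 route through STAT3 were below 0 in 9 of 13 cases (median -0.08), including Socs3 at 9.52 and 9.65 (-0.13, but 0.059 without probe sets that may match several genes), although the oncostatin M receptor Osmr had 7.82 and 7.34 (0.48). Interferon-stimulated genes were above 0 in 19 of 26 cases with a small median of 0.06, led by Cxcl9, and antigen-presenting genes of MHC class II in 6 of 7 (median 0.12), led by H2-Eb1 with 9.12 and 8.50 (0.62).

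Neutrophil genes had ratios above 0 in all 17 measured cases, with a median of 0.30 and 4 at least 1.5-fold higher; the lowest, Il1b and Elane, were at 0.00 and 0.03. Of the 17, 3 were at the floor in the control pool, so the floor fixed their sign, and the 14 above the floor in both pools were also above 0. The calprotectin subunits S100a8 and S100a9 had 9.71 and 9.00 in the yogurt pool against 8.45 and 7.75 in the control pool, ratios of 1.27 and 1.25. Chil3, a chitinase-like protein of neutrophils and macrophages, had 7.60 and 6.23 (1.38), and the granule protein Ltf had 6.10 and 5.50 (0.60). The summed level of the markers on the linear scale was 8447 with yogurt and 5870 without. Most of it was Lcn2, which hepatocytes also make as an acute phase protein; without Lcn2, a choice made after seeing the data, the sums were 3283 and 2084. Of the 22 markers on the array, 5 were below the floor in both pools, the gelatinase Mmp9 (5.27 and 4.95), the integrin Itgam, the stefins Stfa3 and Stfa2l1, and Padi4. The resident macrophages had a smaller difference: Kupffer cell markers were above 0 in 10 of 20 cases (median 0.00), or in 14 after centring on the median of measured genes. The defining gene Clec4f was at 9.77 and 9.80 (-0.03) and Timd4 at 7.30 and 7.19 (0.11). Within that list the scavenger receptors Cd163 and Marco were at 0.40 and 0.38. Markers of monocyte-derived macrophages were above 0 in 8 of 11 cases (median 0.10). The part of neutrophils in the acute phase values, and of Saa3, Lcn2 and Il1rn in particular, was not tested.

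Of 10 measured plasma cell markers 7 were below 0 (median -0.12), and 3 of them, Igha, Jchain and Mzb1, were at least 1.5-fold lower. Igha, the IgA heavy chain, had 7.76 with yogurt and 9.32 without, a ratio of -1.56, and all 3 of its probe sets were below 0. The joining chain Jchain had 8.33 and 9.28 (-0.95), the plasma cell chaperone Mzb1 had 6.56 and 7.22 (-0.65), and the IgM heavy chain Ighm had 11.21 and 11.64 (-0.43), with 7 probe sets between -1.19 and -0.43. The IgG heavy chain gene Ighg3 did not follow, with 6.37 and 5.82 (0.54, and 0.37 as the lowest of the alternatives). It is 1 gene with a control value near the floor and does not stand for the IgG class. The plasma cell factors Xbp1 and Prdm1 were at -0.05 and 0.13, the latter a bound. B cell markers were at 7 of 10 below 0, or at 6 of 10 after centring on the median of measured genes. Their median of -0.03 was close to that of all genes, and the members ran from Ighm (-0.43) to Ly6d (0.52). T cell and cytotoxic markers had 6 of 9 below 0 (median -0.03). In spleen Igha was at 12.78 and 13.22 (-0.44). In jejunum it was the brightest value of either array (14.41 and 14.40), and in ileum and distal colon it was also near the top of the range, so its gut ratios are not read as a comparison.

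Other resident cells gave smaller differences. Sinusoidal endothelial markers were below 0 in 18 of 23 cases (median -0.09), but after centring on the median of measured genes 9 of the 23 were above 0. The hyaluronan receptor Lyve1 had 7.17 and 7.66 (-0.49), Bmp2, the endothelial signal for hepcidin, had 8.39 and 8.75 (-0.36), and Rspo3, a Wnt signal of the central vein, had 6.67 and 6.98 (-0.31). Stab2 had 8.99 and 9.26 (-0.27) whereas Clec4g, the defining lectin of these cells, was at 10.76 and 10.78 (-0.01). Hepcidin itself, Hamp, had 11.91 and 11.83 (0.08), and iron genes were split 9 to 9. Bile duct markers were above 0 in 8 of 11 cases (median 0.10), Prom1 first, but the keratin Krt19 was at 5.70 and 5.64 (0.06) and the ratio of Epcam, 0.58, was 0.00 in its other probe set. Matrix genes had a median of 0.04 over 24 genes, with Postn, an injury matrix protein, at 7.94 and 8.51 (-0.57) and the myofibroblast actin Acta2 at 8.25 and 8.61 (-0.37).

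Of 29 measured cell cycle genes 26 were above 0, with a median of 0.23, and none reached 1.5-fold. Above the floor in both pools were 27 of them, 24 above 0 (median 0.22). Ccna2, cyclin A2, had 6.20 and 5.68 (0.52), Mki67 had 5.98 and 5.50 (0.48) and Top2a had 6.03 and 5.56 (0.48), so the mitotic genes lay close to the floor in both pools, and 14 more of the list were below it. Thymidine kinase, Tk1, had 7.45 and 7.87 (-0.42). Genes reported in liver tumours and fetal liver were above 0 in 18 of 24 cases (median 0.13), or in 16 of the 22 above the floor in both pools (median 0.13). Spink1, a trypsin inhibitor, had 7.43 and 6.69 (0.74), and Ly6d had 8.56 and 8.03 (0.52), while alpha-fetoprotein, Afp, was at 6.85 and 6.71 (0.14). The highest of them, Igdcc4, had 6.95 against a control value at the floor, at least 2.88-fold higher, and 0.44 with a 65th percentile floor. Senescence and p53 targets were split, with 6 of 15 above 0 (median -0.01), Cdkn1a at 9.42 and 9.10 (0.32) and Sesn1 at 8.54 and 9.05 (-0.51). Whether 1 mouse or several carried these values cannot be told from a pool.

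The machinery common to all cells had medians near that of all genes, but its counts leaned upward by small amounts. Respiratory chain subunits were above 0 in 21 of 41 cases and cytosolic ribosomal proteins in 22 of 29, with medians of 0.00 and 0.03. Above the median of all measured genes were 29 of the 41 and 24 of the 29. For example, Cox5a, a cytochrome oxidase subunit, was at 12.61 and 12.64 (-0.03), and Rps6 was at 9.03 and 8.97 (0.06). The ribosomal protein paralogue Rps4l stood apart, with 7.50 and 6.57 (0.94).

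Several genes past 2-fold were members of none of the gene lists, which says nothing about their function. Obp2a, an odorant-binding lipocalin, had 7.86 with yogurt and 6.66 without (1.20), and the major urinary protein Mup5 had a ratio of 1.09 (0.49 with a 65th percentile floor). Moxd1, a monooxygenase, had a ratio of -1.32. Also low were 2 genes outside the rule for named genes, picked after their values were seen: Dmbt1, a scavenger receptor of mucosal surfaces, with 5.72 and 7.28 (-1.56), and E2f7, an atypical E2F factor, with 5.77 and 6.94 (-1.17). E2f7 was not on the cell cycle list, whose lowest ratio was -0.42. Fam107a, an actin-binding protein, had 6.67 and 7.66 (-0.99), and the adaptor subunit Ap2b1 had 7.45 and 8.44 (-0.99, and -0.39 as the mean over all its probe sets). Among the genes past 1.5-fold, 31 had more than 1 measured probe set, and in 25 of these (80.6%) all probe sets had 1 sign. The share was 52.0% of all 5085 genes with more than 1 measured probe set. Genes picked for a large ratio on the same 2 arrays have a higher share by selection, so this is no check on the differences.

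Each other tissue was compared on its own pair of pools, and only part of the liver genes could be measured there. The labels give 10 yogurt and 9 control mice for every tissue, and these may be the same mice. A ratio shared between tissues is therefore not an independent repeat. Of the 61 genes at least 1.5-fold higher in liver, 36 were measured in spleen and 10 were also 1.5-fold higher there, which is 16.4% of the liver genes and 13.3% of the 75 in spleen (0.632% of the genes measured there). Distal colon, where 43 of the 61 were measured, shared 8 of its 117 (0.946%). Jejunum, with 39 measured, shared 6 of its 78 (0.636%), and ileum, with 43 measured, shared 2 of its 26 (0.211%). Of the 47 measured in at least 1 other tissue, 13 were shared. S100a8 was among them in all 4 of these tissues, with 0.59 in spleen and bounds of 1.47 in jejunum, 0.79 in ileum and 1.51 in distal colon, where the control pool was at the floor, and S100a9 and Saa3 in all but ileum. Cyp39a1 was shared with spleen (1.34) and no other. Cyp17a1, Obp2a, Orm2 and Sult1e1 were below the floor in all 4. BC018473, an uncharacterised transcript picked after its values were seen, was at least 1.72-fold higher in liver and had 3.31 in spleen.

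**Figure D5:**
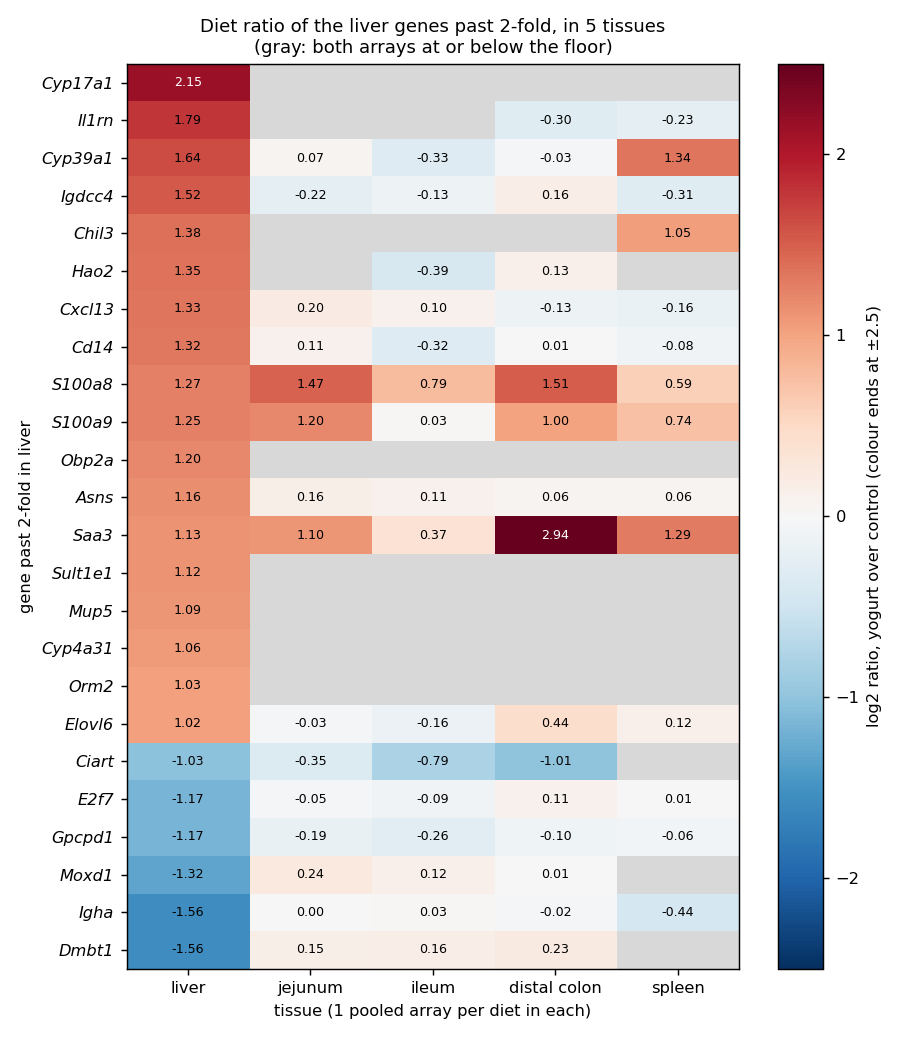
Log2 ratio of the yogurt over the control pool for the 24 genes past 2-fold in liver (rows) in liver, jejunum, ileum, distal colon and spleen (columns), 1 pooled array per diet in each; red is higher and blue lower with yogurt, and gray marks genes at or below the floor on both arrays. S100a8 is red in every tissue, Saa3 is at 2.94 in distal colon, a lower bound because the control pool was at the floor, and Cyp17a1 has a value in liver only.

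Of the 41 genes at least 1.5-fold lower in liver, 34 were measured in at least 1 other tissue and 7 were also 1.5-fold lower there (17.1% of the 41), where 0.244% of genes were that low in jejunum, 0.293% in ileum, 0.089% in distal colon and 1.09% in spleen. Cirbp was shared with ileum (-0.66), distal colon (-0.72) and spleen (-1.16), and was at -0.43 in jejunum. Ciart was shared with ileum (-0.79) and distal colon (-1.01), and Dbp with distal colon (-0.76). Mid1, a ubiquitin ligase picked after its values were seen, was at -0.87 in liver, -1.33 in jejunum, -1.01 in ileum, -0.62 in distal colon and -0.65 in spleen. Gpcpd1, low in liver, was between -0.26 and -0.06 in the other tissues. Moxd1 was between 0.01 and 0.24 in the gut and below the floor in spleen. Among the lists, the neutrophil median was 0.84 in spleen against 0.30 in liver, and the lipogenic median was between -0.07 and 0.04 outside the liver.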

How the data were processed

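Per the submitters' processing notes, MAS5 and affy were used, in roles and versions not given; summarisation and scaling of the deposited log2 expression values: not given in the sources used here. Of 45101 probe sets, 34958 had 1 gene symbol, 932 several and 9211 none; each gene took the probe set brightest on average across all 10 arrays. Values below the array median (50th percentile) were raised to it, genes below it in both liver pools were left out, and the yogurt minus control difference was taken. With 1 array per diet no test was run; the calculation was tested on simulated data. Of 1290 genes in 61 lists, 1134 were on the array and 986 measured. Members and lists were chosen with earlier results of these data known.

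Named were the 15 highest and 15 lowest genes above the 75th percentile with probe sets of 1 sign, core members and the 4 leading members of each list, list members past 1.5-fold and the extremes of gene families. Chosen after values were seen, to fill pathway steps and checks, were Acly, Me1, Scd1, Srebf1, Mlxipl, Dgat1, Dgat2, Hmgcs1, Sc5d, Vnn1, Atf4, Trib3, Chac1, Herpud1, Cry1, Cry2, Per1, Clock, Hnf4a, Stat5b, Bcl6, Egfr, Il1b, Tk1, Mmp9, Fga, Crp, Ahsg, Atf3, Tef, Elane, Prdm1, Xbp1, Lcn2, Gapdh, Itgam, Stfa3, Stfa2l1, Padi4, Dmbt1, E2f7, BC018473 and Mid1. Alternatives were other floors, a pseudocount of 32, other choices of probe set and other scalings. Promoters were from RefSeq (GRCm38.p6). Python 3.11.15, pandas 2.3.3 and scipy 1.17.1 were used.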

Additional observations from a re-analysis of the deposited data

How the results depend on the processing

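Under 11 alternatives, the count of genes at least 2-fold higher was 11 for a 65th percentile floor and 11 for a pseudocount of 32, and the count of those 2-fold lower was 3 at that floor. The count of genes at least 1.5-fold higher was 32 and 38 in the same order. Over all 11 alternatives the 2-fold counts ran from 11 to 22 for higher and from 3 to 9 for lower genes. The 1.5-fold counts ran from 32 to 88 for higher and from 28 to 57 for lower genes. The 1.5-fold split of 61 higher and 41 lower was 69 and 33 after centring on the median of measured genes and 69 and 37 after quantile normalization, and the share of genes above 0 (42.2%) was 50.4% after the latter. The median of the aryl hydrocarbon receptor group was 0.017 as the mean over all probe sets. Hbb-b2 had a main ratio of -0.91, a bound with the yogurt pool at the floor. Without probe sets that may match several genes it was at 0.035, the opposite sign. The cause was not tested for either. Lbp was at -0.12 as the mean over all its probe sets, and without probe sets that may match several genes Mt1 was at -0.23 and Socs3 at 0.059. Genes named with ratios within 0.1 of 0 (Clec4f, Clec4g, Cox5a, Hamp, Hspa5, Rps6 and Ttr) also took the other sign under some alternatives. No paired analysis was possible because each diet has 1 pool in liver and the labels give no replicate numbers. The number of arrays limits the precision.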
